A study of Mus musculus with 9 samples.

Results

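Genes of the circadian clock were followed in RNA recovered with Argonaute 2 (Ago2) from mouse amygdala after chronic social defeat: Arntl (also called Bmal1), Per1, Per3, Nr1d2 and Dbp. They were chosen by gene symbol, as 1 activator, 3 repressors and 1 output gene of the clock, and all 5 had an entry among the 9802 genes of the table. Ago2 is the protein that holds microRNAs together with the transcripts they pair with. The animals were male C57BL/6J mice, 10 weeks old when the defeat protocol was applied, and the tissue was taken 8 days after defeat had ended. Of the 9 arrays, 3 came from undefeated controls (numbered 1, 2 and 4), 3 from defeated mice labelled susceptible and 3 from defeated mice labelled resilient. In all 9 the RNA came from an Ago2 precipitation, so no group shows the level in total RNA. The labels give neither the hour of the day at which tissue was taken nor how a mouse was classed as susceptible or resilient. Whether arrays stand for different animals is not said either, and the spread behind each p-value is that of these samples, which may be technical. In such bulk tissue fewer cells of a type and less RNA per cell cannot be told apart, and a signal can also vary with how much of a transcript was bound to Ago2.

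The mammalian clock is a feedback loop of transcription. The activator encoded by Arntl pairs with CLOCK and switches on genes that carry an E-box, among them the Period genes, the Rev-erb genes and Dbp. The Period proteins enter the nucleus with the Cryptochromes and block that activator. The Rev-erb proteins, of which Nr1d2 encodes the beta form, repress Arntl through a binding element that they share with the ROR activators. DBP, a PAR bZIP factor that binds the D-box, passes the rhythm on to other genes. Transcripts of Arntl and of the E-box genes therefore peak at roughly opposite times of day in many mouse tissues. Per1 also responds directly to glucocorticoids and to neuronal activity.

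Short motifs were looked for in the letters around the transcription starts. RefSeq windows of 300 bases on GRCm38.p6, 250 before and 50 after a start, were found for all 5 genes, 7 windows in all, since Per1 and Arntl have more than one start in that table. They were searched on both strands for the E-box (CACGTG), its variant (CACGTT), the D-box (TTATGTAA or TTACGTAA), the Rev-erb and ROR half-site (AGGTCA) and the cAMP response element (TGACGTCA), none of which overlap each other in the matches found. The 3 windows with a match before the start are shown for the 250 bases upstream, 5′ to 3′ on the gene's strand, with the matches in capitals, and for Arntl the 30 bases around its match are shown.
Per1, chr11:69098699-69098948, plus strand: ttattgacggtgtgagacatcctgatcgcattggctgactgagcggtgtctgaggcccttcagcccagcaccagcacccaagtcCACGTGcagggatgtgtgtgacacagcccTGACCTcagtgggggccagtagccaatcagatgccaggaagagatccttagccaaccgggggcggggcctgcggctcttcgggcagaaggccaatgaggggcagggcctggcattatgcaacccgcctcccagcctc
Per3, chr4:151044666-151044915, minus strand: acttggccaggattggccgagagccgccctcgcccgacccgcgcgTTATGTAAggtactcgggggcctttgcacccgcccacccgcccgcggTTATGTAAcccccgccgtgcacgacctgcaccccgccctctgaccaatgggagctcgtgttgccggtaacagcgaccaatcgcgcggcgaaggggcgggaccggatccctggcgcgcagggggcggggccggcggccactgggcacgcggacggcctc
Nr1d2, chr14:18239107-18239356, minus strand: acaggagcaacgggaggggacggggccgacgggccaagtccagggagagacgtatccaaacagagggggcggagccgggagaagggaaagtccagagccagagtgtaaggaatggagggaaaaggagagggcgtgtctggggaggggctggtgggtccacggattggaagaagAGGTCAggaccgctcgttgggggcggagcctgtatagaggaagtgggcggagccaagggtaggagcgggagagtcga
Arntl, chr7:113207530-113207559, plus strand: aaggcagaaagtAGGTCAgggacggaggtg

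The upstream Per1 window held 1 E-box, whose first base lay 166 bases before the start, and 1 half-site on the reverse strand 137 bases before it. The Per3 window held 2 D-boxes, at 205 and 158 bases before the start. The Nr1d2 window held 1 half-site 77 bases before the start, and 1 of the 2 Arntl windows held a half-site that began at base 32 of the transcript. No match lay in the Dbp window, in the second Per1 window or in the other Arntl window. Among all 32851 RefSeq windows of the same length, 7.15% held the E-box, 4.68% its variant, 1.06% the D-box, 16.3% the half-site and 1.79% the cAMP response element. These matches describe the letters only, and no binding was measured.

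Every value below is a log2 RMA signal, and every difference is one of group means on that scale. Precision is limited by how few arrays there are. The table had been selected for a difference among the 3 groups: no symbol had a one-way p above 0.287 in its best entry, so all of the 5 genes, and all genes they are set against, had passed that selection. Adjusted p-values (limma, Benjamini-Hochberg over 9802 genes) are therefore also given with an allowance, in which each p was divided by that limit first. Array medians lay between 7.11 and 7.19, while the upper quartile of the table was 9.62 in all 3 controls, 9.69 to 9.72 in susceptible and 9.66 to 9.72 in resilient arrays. The 5 clock genes were bright, between the 70.8th and the 82.9th percentile of mean signal over genes. Genes at or above the median signal had a median difference of 0.08 between defeated and control arrays, against 0.04 over all genes.

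Arntl, the activator, had the lower signal in defeated mice. It read 9.50, 9.57 and 9.38 in controls 1, 2 and 4, then 9.30, 9.39 and 9.37 in susceptible 1 to 3 and 9.34, 9.32 and 9.37 in resilient 1 to 3. All 3 resilient arrays lay below all controls, and susceptible 2 was the one defeated array above the lowest control. Group means were 9.48 ± 0.09 (controls), 9.35 ± 0.05 (susceptible) and 9.34 ± 0.03 (resilient; SD, n = 3 each). The difference between defeated mice (the mean of both defeated groups) and controls was -0.13 (SE 0.044), with a limma adjusted p of 0.0958, or 0.334 with the allowance, so Arntl did not pass the test.

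Per1, a Period repressor, had its lowest defeated value at the control level. Its signal was 10.18, 10.19 and 10.09 in controls 1, 2 and 4. It was 10.37, 10.48 and 10.34 in susceptible 1 to 3 and 10.18, 10.29 and 10.47 in resilient 1 to 3. Susceptible arrays all lay above controls, whereas resilient 1 lay inside the control range and resilient 3 among the highest arrays. The means were 10.16 ± 0.05 (controls), 10.40 ± 0.07 (susceptible) and 10.31 ± 0.15 (resilient; SD, n = 3 each). Defeated minus control was 0.20 (SE 0.063), or 1.15-fold, with a limma adjusted p of 0.0856, or 0.299 with the allowance.

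Per3, the Period paralogue whose role in the core loop is smaller, separated defeated from control arrays fully, while the susceptible and resilient arrays overlapped. Controls 1, 2 and 4 read 9.24, 9.29 and 9.13. Susceptible arrays read 9.49, 9.39 and 9.39 and resilient arrays 9.40, 9.39 and 9.44, so all 6 defeated arrays lay above all controls. Susceptible 2, susceptible 3 and resilient 2 shared exactly the same value, and 5948 of the 11772 table entries held such a tie. Means were 9.22 ± 0.09 (controls), 9.43 ± 0.06 (susceptible) and 9.41 ± 0.03 (resilient; SD, n = 3 each). The difference was 0.20 (SE 0.044), or 1.15-fold, with a limma adjusted p of 0.0550, or 0.192 with the allowance.

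Nr1d2, the Rev-erb repressor of Arntl, was ordered control, susceptible, resilient. Its signal was 10.21, 10.26 and 10.20 in controls, 10.28, 10.34 and 10.36 in susceptible and 10.40, 10.38 and 10.48 in resilient arrays, each in the order of their numbers. The 3 groups did not overlap at any point, and the share of all genes with such a separation was not counted. Means were 10.22 ± 0.03, 10.33 ± 0.04 and 10.42 ± 0.05 (SD, n = 3 each). Defeated minus control was 0.15 (SE 0.035), or 1.11-fold, with a limma adjusted p of 0.0586, or 0.205 with the allowance.

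Dbp, the output gene, had the largest difference of the 5 between defeated and control arrays. It read 9.47, 9.54 and 9.46 in controls, 9.55, 9.72 and 9.81 in susceptible and 9.72, 9.73 and 9.81 in resilient arrays. All defeated arrays lay above all controls, but susceptible 1 only just did, and it stood apart from the other 5. Means were 9.49 ± 0.05 (controls), 9.69 ± 0.13 (susceptible) and 9.75 ± 0.05 (resilient; SD, n = 3 each). The difference was 0.23 (SE 0.055), or 1.17-fold, with a limma adjusted p of 0.0587, or 0.205 with the allowance.

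**Figure D1:**
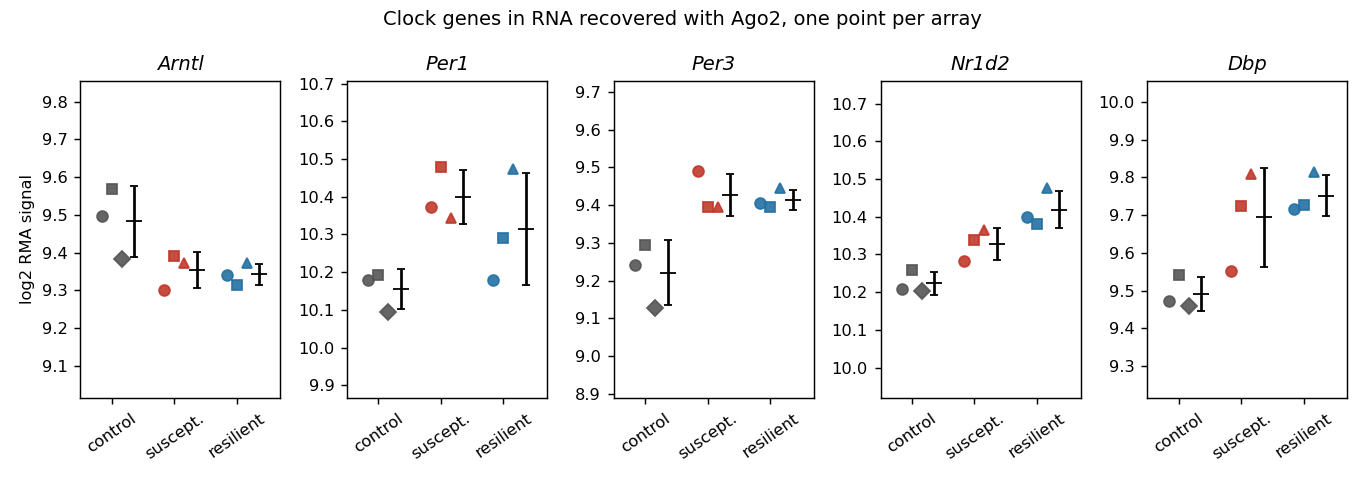
The log2 RMA signal (y axis) of Arntl, Per1, Per3, Nr1d2 and Dbp is plotted for each array in the control (grey), susceptible (red) and resilient (blue) groups, with a marker shape for each replicate number (1 circle, 2 square, 3 triangle, 4 diamond) and the group mean ± SD in black (n = 3 each). All panels span the same range of signal. Both defeated means lie below the control mean for Arntl and above it for the other 4, of which only Nr1d2 and Dbp have their highest mean in resilient mice, and resilient 1 sits with the controls for Per1.

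Taken against controls, limma called 0 of the 5 genes in defeated mice, where it called 1.29% of all genes, and 0 in susceptible mice, where it called 2.40%. In resilient mice, and between susceptible and resilient mice, it called 0 of the 5 and 0.00% of all genes. At an unadjusted p under 0.05 were 5 of 5 for all defeated mice (36.9% of all genes), 5 of 5 for the susceptible (40.7%) and 4 of 5 for the resilient group (21.2%), and 0 of 5 between the defeated groups (11.8%). With the allowance limma called 0 of the 5 and 0.00% of all genes in defeated mice. In susceptible mice the allowance left 0 of the 5 and 0.0102% of all genes. In defeated mice 3 of the 5 genes lay wholly above controls (10.9% of all genes) and 0 wholly below (6.45%). In susceptible mice 4 of 5 lay wholly above (25.4%) and 0 below (14.8%), and in resilient mice 3 of 5 above (16.7%) and Arntl below (11.4%). Both single-group comparisons use the same control arrays. A two-sided exact permutation test over the 84 arrangements of 6 defeated and 3 control arrays gave an unadjusted p of 0.0238 for Per3, Nr1d2 and Dbp, the smallest it can give, 0.0476 for Arntl and 0.0714 for Per1. The real arrangement is favoured in that test, because the selection of the table used it.

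The susceptible and resilient groups can be set side by side gene by gene. For Arntl the difference from controls was -0.13 (SE 0.051) in susceptible and -0.14 (SE 0.051) in resilient mice. For Per1 it was 0.24 (SE 0.072) and 0.16 (SE 0.072), and for Per3 0.21 (SE 0.050) and 0.19 (SE 0.050), in the same order. Nr1d2 gave 0.10 (SE 0.041) in susceptible and 0.20 (SE 0.041) in resilient mice, and Dbp 0.20 (SE 0.064) and 0.26 (SE 0.064). The activator was thus below controls and the other 4 genes above them in both defeated groups. Over all genes 58.6% were above controls in all defeated mice, 57.9% in the susceptible and 58.4% in the resilient group. The share above controls in both defeated groups was not counted.

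Tested directly, susceptible minus resilient was 0.01 for Arntl (95% interval -0.10 to 0.13), 0.01 for Per3 (-0.10 to 0.13), 0.08 for Per1 (-0.08 to 0.25) and -0.06 for Dbp (-0.20 to 0.09). For Nr1d2 it was -0.09 (-0.18 to 0.00), with all 3 susceptible arrays below all resilient ones, a separation in that direction found for 6.65% of all genes, against 8.36% in the other direction. Of the 5 genes 3 were higher in susceptible mice, as were 54.1% of all genes. The limma adjusted p of Nr1d2 in this comparison was 0.411, and those of the other 4 lay between 0.541 and 0.904. The order of the defeated groups was therefore not settled for any of the 5 genes. The intervals of Per1 and Nr1d2 reach as far as those genes' differences between defeated and control mice (0.20 and 0.15), while that of Dbp ends short of its 0.23.

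**Figure D2:**
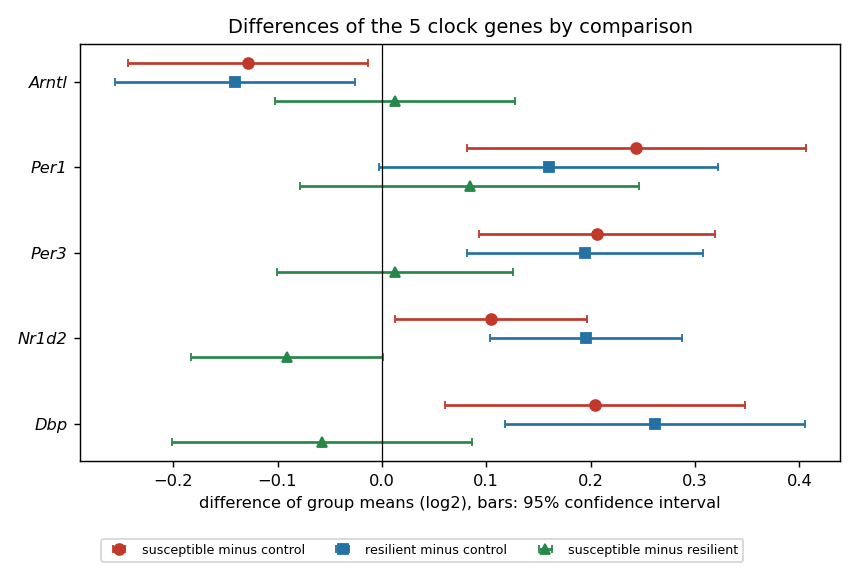
Differences of group means on the log2 scale (x axis) with limma's 95% confidence intervals are shown for the 5 genes, with susceptible minus control in red, resilient minus control in blue and susceptible minus resilient in green. Red and blue points lie to the left of 0 for Arntl and to the right for the other genes, and all green intervals include 0, that of Nr1d2 by less than 0.01.

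The positive arm was then set against the repressor and output genes within each array. The change of Arntl from its control mean, minus the average change of Per1, Per3, Nr1d2 and Dbp from theirs, was 0.01, 0.04 and -0.05 in controls 1, 2 and 4. It was -0.33, -0.30 and -0.32 in susceptible 1 to 3 and -0.30, -0.34 and -0.39 in resilient 1 to 3. The group means of this arm difference were -0.32 ± 0.02 in susceptible and -0.34 ± 0.05 in resilient mice, with an SD of 0.04 among controls (n = 3 each). All 6 defeated arrays lay between -0.39 and -0.30, and the 2 defeated groups differed by 0.03, less than the within-group SD of 0.04. The measure combines genes chosen with earlier results known, so it is given as a description with no test. An amount added to every gene of an array cancels in it: shifting arrays to one median left it at -0.33 in defeated mice, and quantile normalisation gave -0.34.

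**Figure D3:**
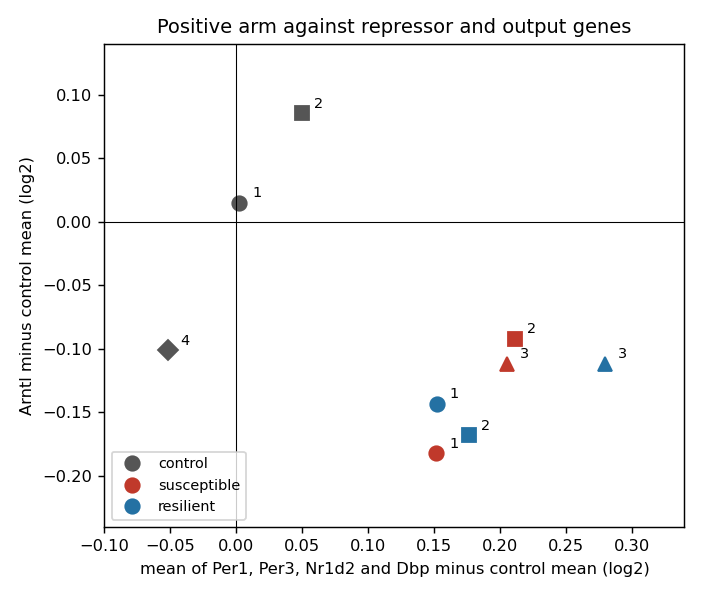
Each array is placed by the average change of Per1, Per3, Nr1d2 and Dbp from their control means (x axis, log2) and by the change of Arntl from its control mean (y axis, log2), with controls in grey, susceptible in red and resilient in blue and the replicate number beside each point. The 6 defeated arrays form a group at the lower right, with x values of 0.15 to 0.28 and y values of -0.18 to -0.09, whereas control 4 has a low Arntl value without a high x value.

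Within a group the 5 genes did not always separate into arms. Control 2 had the highest signal of its group for all 5 genes, Arntl included, and control 4 the lowest for all 5. In the same way resilient 3 was the highest resilient array for all 5 genes (Arntl at 9.37, Dbp at 9.81). Susceptible 1 was the lowest susceptible array for Nr1d2, Dbp and Arntl and the highest for Per3. Over the 26 clock genes with an entry, the 5 included, susceptible 1 was the lowest susceptible array for 17 and resilient 3 the highest resilient array for 15. The matching shares over all genes were not counted. The upper quartile of the whole table was also lowest in susceptible 1 of its group (9.694, against 9.719 and 9.722). In resilient 3 it was the highest of its group (9.717, against 9.657 and 9.691). Among controls the order was the reverse of that of the 5 genes, with control 2 the lowest (9.615) and control 4 the highest (9.618). The part of array scale in these counts was not tested.

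The rest of the clock was described from a list of 41 further genes, of which 21 had an entry in the table and 20 did not. Of these 21, limma called 1 in susceptible mice, which was higher (2.40% of all genes were called), and 0 in defeated mice as a whole (1.29%), in resilient mice or between the defeated groups (0.00% each). At an unadjusted p under 0.05 limma left 6 in the comparison of all defeated mice (36.9% of all genes), 7 for the susceptible (40.7%) and 6 for the resilient group (21.2%), and 2 between these groups (11.8%). In defeated mice 17 of the 21 had a positive difference, as did 58.6% of all genes, with a median of 0.07 against 0.04 over all genes. In susceptible and resilient mice the medians were 0.06 and 0.08, against 0.05 and 0.03. Genes at or above the median signal, as most of the 21 were, had medians of 0.08, 0.09 and 0.06 in defeated, susceptible and resilient mice.

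Per2, the Period gene with the strongest role in the loop in mouse knockouts, was the gene called in susceptible mice. It read 9.21, 9.34 and 9.32 in controls, 9.63, 9.69 and 9.63 in susceptible and 9.34, 9.62 and 9.64 in resilient arrays. It rose by 0.36 (SE 0.077), or 1.28-fold, in susceptible mice, with a limma adjusted p of 0.0479, or 0.167 with the allowance. In resilient mice the difference was 0.25 (SE 0.077, adjusted p = 0.193), and susceptible minus resilient was 0.11 (adjusted p = 0.462), so a difference between the defeated groups was not shown. Resilient 1 lay close to the controls for Per2, as it did for Per1. The call ended when any control array, susceptible 2, susceptible 3, resilient 2 or resilient 3 was left out (adjusted p 0.0543 to 0.118). It also ended when every table entry was tested (0.0582), only the groups compared were fitted (0.0588) or quantile normalisation was used (0.0631). The same held with the replicate block (0.0847) and with the choroid plexus covariate (0.404). With this block, this covariate, or without control 1, control 2, susceptible 2 or susceptible 3, limma called 0 of all 9802 genes. No gene kept a call there. It called 1 gene without resilient 2, 2 with only the groups compared and 12 with quantile normalisation. Calls numbered 89 without control 4, 92 with every entry and 136 without resilient 3, against 235 in the main fit.

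Among the remaining genes of the core loop, named here after their values were seen, Clock, the partner of Arntl, had a difference of -0.02 (SE 0.030) between defeated and control mice. The Cryptochrome genes Cry1 and Cry2 had 0.07 (SE 0.040) and 0.10 (SE 0.047). Nr1d1, the other Rev-erb gene, had 0.15 (SE 0.080), with control 4 at 11.66 and resilient 1 at 11.50. Ciart, which encodes a further repressor of the Arntl and Clock pair, had 0.07 (SE 0.096) by the brighter of its 2 table entries and 0.28 by the other. The entries disagree in sign in susceptible mice, at -0.05 and 0.20, and in resilient mice they gave 0.19 and 0.37. None of these 5 passed the test, with limma adjusted p-values of 0.141 to 0.637. Arntl2, the paralogue of Arntl, had a positive difference of 0.19 (SE 0.056, adjusted p = 0.0784), opposite in sign to Arntl.

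The other large differences of the list, also not called, were those of Hif3a (0.33, SE 0.13), which encodes a hypoxia-inducible factor subunit, and Tspan4 (0.33, SE 0.079), a tetraspanin gene. The cold-inducible RNA-binding protein gene Rbm3 had 0.23 (SE 0.081), and its 4 entries gave 0.23, 0.25, 0.24 and, at a mean signal of only 5.12, -0.03. Timeless had -0.20 (SE 0.083), also at a low mean signal (5.42) and with susceptible 3 the lowest array at 5.07. Lonrf3 had 0.17 (SE 0.076). All 5 members of the list's rhythmic output group with an entry (Rbm3, Hif3a, Tspan4, Lonrf3 and Por) had positive differences in both defeated groups. Over all genes 57.9% were positive in the susceptible and 58.4% in the resilient group, and the share positive in both was not counted. limma called 0 of these 5 in either group (2.40% and 0.00% of all genes). At an unadjusted p under 0.05 were 3 in the susceptible (40.7% of all genes) and 3 in the resilient group (21.2%). Another 3 of the 8 rhythmic outputs listed had no entry.

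**Figure D4:**
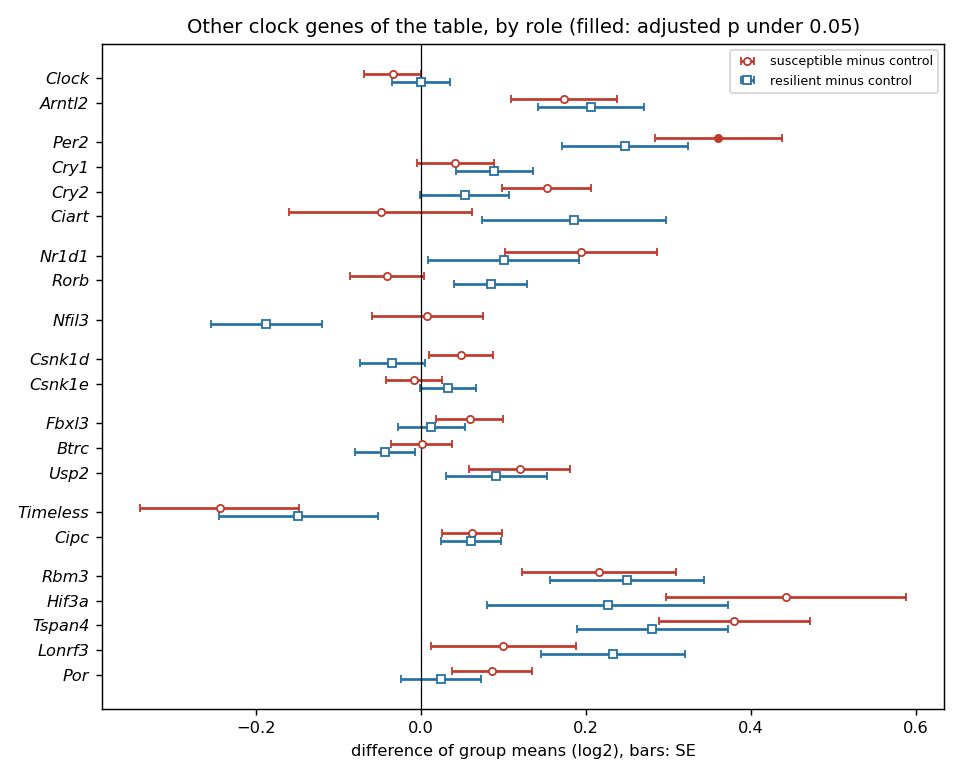
Differences of group means (x axis, log2) with limma's SE are shown for the 21 other clock genes with an entry, grouped by role from activators at the top to rhythmic outputs at the bottom, for susceptible (red circles) and resilient (blue squares) against control arrays. Filled points passed an adjusted p of 0.05, which Per2 did in susceptible mice; Clock, Ciart, Rorb, Nfil3, Csnk1d, Csnk1e and Btrc have points on opposite sides of 0, Ciart only by the entry drawn.

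The genes most like each member over the 9 arrays were taken by Pearson's r among genes whose SD over arrays was at least 0.1, as a description with no p. Arrays of a group share their condition, and the table was selected for group differences. Nr1d2 was most like Taz (r = 0.98), Dbp (0.93) and Itpr1 (0.93), so that Dbp ranked 2 of 3724. Per1 was most like Gba2 (0.96), Ero1b (0.96) and Dhx30 (0.96), with Per2 at rank 53 (0.89). Per3 was most like Syne1 (0.98), Dnmt3a (0.97) and Atp8a2 (0.97), with Per1 at rank 211 (0.76). Dbp was most like BC022960 (0.97), Mapk4 (0.94) and Vmn2r79 (0.94), with Arntl2 at rank 17 (0.91). Nr1d2 and Arntl had an SD below 0.1, so neither could appear as a partner of another member, although Nr1d2 and Dbp had r = 0.93. Arntl was most like Klk10 (0.89), Cideb (0.88) and Tbxas1 (0.88), with Timeless at rank 537 (0.48), and least like A1cf (-0.95) and Tent5a (-0.92). The lowest values were those of Creb5 (-0.94) and B2m (-0.89) for Per1, Psmd8 (-0.95) and Prokr2 (-0.95) for Per3, Selenok (-0.92) and Gm5246 (-0.91) for Nr1d2, and Gm11971 (-0.95) and Gm8587 (-0.95) for Dbp.

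Per1 is induced by glucocorticoids and by neuronal activity, and genes of those kinds are given beside it. Fkbp5, the glucocorticoid-induced co-chaperone gene, rose by 0.38 (SE 0.058, limma adjusted p = 0.0371, or 0.130 with the allowance) in defeated mice, in which Tsc22d3 had 0.22 and Sgk1 0.10, neither of them called. In defeated mice limma called 0 of all 9802 genes without control 1 or 2, susceptible 2 or 3, or resilient 2 or 3. It also called 0 with the replicate block and with the choroid plexus covariate, so Fkbp5 kept no call in any of these fits. Of the 20 glucocorticoid-induced genes listed, 11 had an entry. Of these 11, 9 had a positive and 2 a negative difference (lowest -0.04, median 0.14, highest 0.41), and 58.6% of all genes were positive. limma called 1 of the 11 (1.29% of all genes), with 6 at an unadjusted p under 0.05 (36.9% of all genes). Of 20 immediate early and activity-induced genes listed, 15 had no entry, Fos and Egr1 among them, so this list was read only in part. Of the 5 with an entry (Junb, Arc, Ier2, Bdnf and Crem), 0 were called by limma in defeated mice. At an unadjusted p under 0.05 was 1 of them, against 1.29% called and 36.9% under that p among all genes. Of these 5, 3 had a positive and 2 a negative difference (58.6% of all genes were positive), from -0.07 to 0.08 with a median of 0.06. Bdnf, the growth factor gene, was the lowest at -0.07 (SE 0.044).

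Marker genes of other cell types also differed between arrays, but few passed the test. In susceptible mice limma called 1 of 16 choroid plexus, 1 of 3 astrocyte, 0 of 3 oligodendrocyte, 0 of 6 microglial and 0 of 7 endothelial markers with an entry (2.40% of all genes). At an unadjusted p under 0.05 these were 13, 1, 3, 3 and 3, in the same order (40.7% of all genes). The mean log2 signal of 16 of 18 choroid plexus and ependymal markers was 8.80 to 9.20 in controls, 9.27 to 9.62 in susceptible and 8.81 to 9.27 in resilient arrays. That of 3 of 14 oligodendrocyte markers was 9.27 to 9.41 in controls, 8.87 to 9.02 in susceptible and 8.87 to 9.40 in resilient arrays, with resilient 1 the highest of the resilient ones. For 6 of 14 microglial markers the ranges were 8.79 to 8.92, 8.59 to 8.72 and 8.60 to 8.84. Astrocyte markers, 3 of 11, overlapped between controls (11.41 to 11.45) and susceptible arrays (11.41 to 11.53), and lay at 11.47 to 11.49 in resilient ones. Endothelial and mural markers, 7 of 13, overlapped in all groups, at 8.57 to 8.85, 8.53 to 8.74 and 8.64 to 8.68. The mean of the 5 of 12 pan-neuronal markers with an entry lay at 12.05 to 12.07 in controls and at most 12.04 in either defeated group. Taken singly, 2 were higher and 3 lower in defeated mice, and all 5 overlapped with controls. limma called 0 of the 5 in defeated mice, with 0 at an unadjusted p under 0.05 (1.29% and 36.9% of all genes). Of the defining markers of amygdala neurons, 1 of 12 for the basolateral type (Lypd1) and 4 of 18 for the central and striatal type had an entry. The tissue label could thus be checked only in part. Lypd1 lay at 12.43 to 12.56 in controls, 12.59 to 12.66 in susceptible and 12.39 to 12.56 in resilient arrays. limma did not call Lypd1, and its unadjusted p was under 0.05 only between susceptible and resilient mice (11.8% of all genes). The central and striatal mean was 9.30 to 9.62 in controls, 8.68 to 9.32 in susceptible arrays, 10.25 in resilient 1 and 9.26 to 9.29 in the other resilient arrays, and limma called 0 of these 4 markers (1 at an unadjusted p under 0.05 in susceptible mice). Resilient 1 is also the array that lay with the controls for Per1 and close to them for Per2. The part of these markers in the clock gene differences was not tested, apart from a fit with choroid plexus content as a covariate. In it the differences between defeated and control mice were 0.18 for Per1, 0.23 for Per3, 0.13 for Nr1d2, 0.19 for Dbp and -0.11 for Arntl, with limma adjusted p-values of 0.159 to 0.321. That fit called 0 of all 9802 genes in defeated mice.

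The sign of each difference from controls stayed the same under every alternative run, but the size and the calls did not. Quantile normalisation gave 0.08 for Nr1d2, 0.12 for Per3, 0.14 for Per1, 0.16 for Dbp and -0.22 for Arntl in defeated mice. In susceptible mice it gave 0.02 for Nr1d2. Per1 in resilient mice was 0.08 without resilient 3 and 0.23 without resilient 1. Without susceptible 1, limma called Per3, Nr1d2 and Dbp in defeated mice, among 1332 genes or 13.6% of the table, and without resilient 1 it called Per1, among 430 genes or 4.39%. With array weights all 5 were called, among 21.2% of the table. Over the 9 left-out arrays the number of genes called in defeated mice ran from 0 to 1332.

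**Figure D5:**
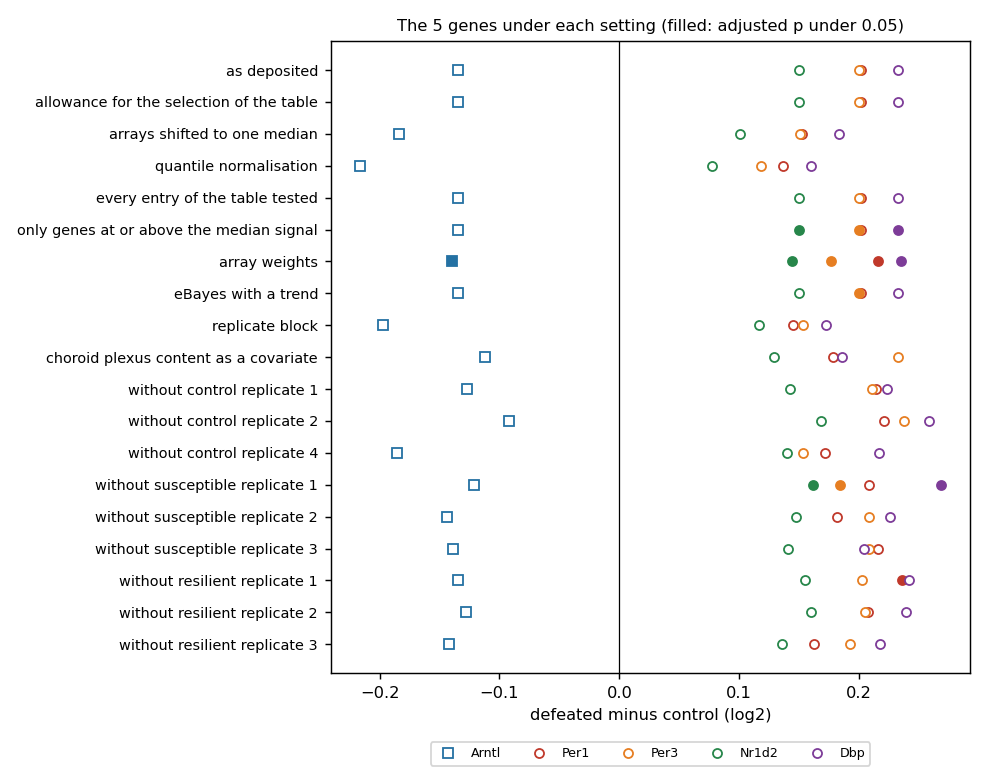
The difference between defeated and control arrays (x axis, log2) is drawn for Arntl (blue squares), Per1 (red), Per3 (orange), Nr1d2 (green) and Dbp (purple) under each setting (y axis), with filled points where limma's adjusted p was under 0.05. Arntl stays left of 0 and the other genes right of it in every line, and filled points appear with array weights, the signal filter, the variance trend and without susceptible 1 or resilient 1.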

How the data were processed

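The authors deposited log2 values made with RMA (background correction, quantile normalisation and a summary per probe set), per the submitters' processing notes, which also name Partek. The sources used here do not give software versions, the array version or a genome build. Gene symbols were joined by probe set from another table the authors deposited, whose 9 value columns matched no sample label and were not used. Symbols were updated through a RefSeq table (GRCm38.p6): 8393 were current, 1014 were replaced, 8 were kept because the newer symbol was present and 388 had no match. The entry with the highest mean was kept for each of 9802 genes, and each of the 5 clock genes had 1 entry. All 9 arrays entered 1 fit in limma with group means as coefficients (lmFit, contrasts.fit, eBayes, two-sided, prior degrees of freedom 3.40, no filter), with Benjamini-Hochberg adjustment over all genes and a threshold of 0.05. The script was tested on simulated data. Genes of the wider list were named if called in a comparison, or else as the 6 with the largest difference between defeated and control arrays. One gene of the wider list is not reported here and is left out of its counts. The 5 genes, the lists and the rules were chosen with earlier results of these data known. For this reason no p was adjusted over the 5 genes alone, including the exact tests, for which such an adjustment had been planned. Equal replicate numbers were not treated as pairs. Alternatives covered scaling, filtering, weights, variance prior, covariates and left-out arrays. Tools were limma 3.58.1 under R 4.3.3, and scipy 1.17.1, numpy 2.4.6, matplotlib 3.10.9 and pandas 2.3.3 under Python 3.11.15.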

Additional observations from a re-analysis of the deposited data

How the results depend on the processing

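limma's count of called clock genes, 0 of 5 in every comparison, was 5 in defeated and 4 in susceptible mice with array weights (2080 and 3435 of 9802 genes called), 3 and 1 with only genes at or above the median signal (8.96% and 11.3%), 1 in defeated mice with a trend in eBayes (2.60%), and 1 in susceptible mice with arrays shifted to one median (15.3%). Left-out arrays gave 0 to 3 in defeated and 0 to 1 in susceptible mice. With the replicate block the count was 0, as it was over all 9802 genes. Same-numbered susceptible and resilient arrays had deviations correlated at 0.118, 0.017 and 0.074, control 1 correlated at 0.071 and 0.247 and control 2 at -0.037 and -0.078 with the susceptible and resilient arrays of their numbers, and susceptible 2 and 3 correlated better with another number, so the numbers were not taken as pairs. Between susceptible and resilient mice, the difference of Arntl (0.01) became -0.0171 with arrays shifted to one median, -0.0165 with quantile normalisation, -0.0060 without susceptible 2 and -0.0012 without resilient 2, and ran from -0.0060 to 0.0392 over left-out arrays. That of Per3 (0.01) became -0.0174 and -0.0145 with the same scalings and -0.0203 without susceptible 1, with a range of -0.0203 to 0.0283. That of Dbp (-0.06) became 0.0143 without susceptible 1, with a range of -0.115 to 0.0143. The cause was not tested. The arm difference in defeated mice was -0.36 to -0.31 over left-out arrays. Each of the 5 genes has 1 entry, so no alternative entry could be tried. The table's selection limits every adjusted p.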
